A study of Mus musculus with 6 samples.

Results

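Interferon-high barrier endothelial cells are the endothelial cells of the mouse blood-brain barrier that carry many transcripts of 6 interferon-induced genes, Ifit1, Ifit2, Ifit3, Ifit3b, Rsad2 and Isg15. A cell was taken as barrier endothelial when the genes Cldn5, Flt1, Ly6c1 and Itm2a gave at least 6 unique molecular identifiers (UMIs, each 1 counted RNA molecule) together, the microglial genes Cx3cr1, Aif1 and Csf1r gave 0 and Plvap, a gene of fenestrated endothelium, gave at most 1. It was interferon-high when the 6 interferon genes summed to 6 UMIs or more. This sum is called the score. The rule found 2814 such cells among 22886 barrier endothelial cells, 44112 cells that passed the quality filter and 49059 deposited cells. A further 8791 endothelial cells had a score of 0 and served as the reference, and 11281 had a score of 1 to 5.

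Brain microvessels of 6 untreated male mice aged 12 months were captured with beads carrying an antibody to CD31, an endothelial surface protein, digested to single cells and sequenced as 1 droplet library per mouse. The tissue was a single cerebral hemisphere per mouse. Of the mice, 3 were wild-type (WT) C57BL/6J and 3 were TgAppArcSwe, a model of Alzheimer's disease that carries human amyloid precursor protein with the Arctic and Swedish mutations and deposits amyloid in vessel walls. The labels name no promoter for the transgene and do not say whether the groups were littermates. The libraries held 26436229 to 59161203 UMIs in all deposited cells. TgAppArcSwe replicate 2 stood apart with the fewest cells, 2907 deposited, and the highest median depth, 5542 UMIs per kept cell, against 2922 in TgAppArcSwe replicate 3, the library with the most cells. Of the kept barcodes, 235 occurred in more than a single library. None of them was interferon-high in more than a single library.

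Interferons are secreted proteins that bind receptors on nearly every cell and, through JAK kinases and STAT transcription factors, switch on a large set of antiviral genes. Type I interferon acts through a complex of STAT proteins with IRF9, which binds a short DNA element, the interferon-stimulated response element. The induced proteins sense viral nucleic acid, block translation, tag proteins with ISG15 and raise antigen display by MHC class I. Brain endothelial cells carry interferon receptors and face the blood, and they differ in gene expression from artery through capillary to vein.

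The start regions of 4 of the 6 genes that define these cells, and of 2 named genes that rose in them, Oas1a and Apol9b, are given because they hold letters of that element. Each line gives the 170 bases before the RefSeq start site, 5′ to 3′ on the gene's strand, with coordinates in GRCm38.p6. Capitals mark every match to GAAANNGAAA, a spelling of the element's core, searched on both strands, so that TTTCNNTTTC is the same match read backwards, and overlapping matches were kept.
Ifit1, chr19:34640719-34640888, plus strand: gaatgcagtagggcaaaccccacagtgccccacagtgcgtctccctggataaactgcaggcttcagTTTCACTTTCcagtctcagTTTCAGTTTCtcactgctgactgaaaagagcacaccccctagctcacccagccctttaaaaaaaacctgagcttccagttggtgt
Ifit3, chr19:34583359-34583528, plus strand: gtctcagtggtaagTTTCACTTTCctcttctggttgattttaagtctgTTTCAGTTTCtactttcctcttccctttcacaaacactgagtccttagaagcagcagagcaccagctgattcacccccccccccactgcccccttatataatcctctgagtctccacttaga
Rsad2, chr12:26456453-26456622, minus strand: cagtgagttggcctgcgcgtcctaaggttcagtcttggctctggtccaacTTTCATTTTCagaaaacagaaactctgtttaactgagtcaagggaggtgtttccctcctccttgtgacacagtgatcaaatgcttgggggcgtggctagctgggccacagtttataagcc
Isg15, chr4:156200819-156200988, minus strand: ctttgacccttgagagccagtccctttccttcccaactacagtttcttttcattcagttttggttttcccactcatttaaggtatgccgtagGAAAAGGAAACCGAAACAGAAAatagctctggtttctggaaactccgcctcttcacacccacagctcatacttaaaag
Oas1a, chr5:120907526-120907695, minus strand: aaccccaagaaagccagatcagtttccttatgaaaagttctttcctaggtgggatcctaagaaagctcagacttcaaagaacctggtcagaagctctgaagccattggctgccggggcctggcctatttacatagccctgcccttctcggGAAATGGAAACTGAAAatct
Apol9b, chr15:77728902-77729071, plus strand: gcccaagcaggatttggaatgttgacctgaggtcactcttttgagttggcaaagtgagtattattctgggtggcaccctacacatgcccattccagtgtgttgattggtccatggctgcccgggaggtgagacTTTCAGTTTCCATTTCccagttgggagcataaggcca
A match was present in the start region of 5 of the 6 score genes. Ifit3b, a near copy of Ifit3, held 2 and is not printed. In Ifit2 neither of its windows held these letters. Isg15, Oas1a and Apol9b held matches that overlap each other, 3 of them in Isg15. Of the 13 named genes that rose and had a window, 4 (30.8%) held a match. Over windows of 300 bases, from 250 before to 50 after the start, 3.99% of the 27025 genes in the RefSeq table held a match. The share was 3.73% of the 8842 tested genes with a window, 12.0% of the 648 that rose in interferon-high cells and had a window, and 3.21% of the 530 that fell. Among the 58 genes with a window that rose by more than 1 on the log2 scale, 51.7% held a match. A match describes these letters only and does not show binding.

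Isg15, a ubiquitin-like protein, gave the largest part of the score. Its UMIs were 37.8% of all score UMIs in the interferon-high cells, and 94.0% of these cells held at least 1. Ifit1, whose protein binds foreign RNA, gave 21.1%, Rsad2, the antiviral enzyme viperin, 16.4%, and Ifit3, a partner of Ifit1, 14.8%. Ifit3b and Ifit2 gave 5.02% and 4.82%. The cells were chosen by the UMIs of these genes, so their levels are a description. In CPM, the UMIs of a gene per 1000000 UMIs of the summed cells of a mouse, Isg15 stood at 555, 504 and 685 in the WT mice and 602, 490 and 785 in the TgAppArcSwe mice. Most cells held several of the genes: 86.0% had UMIs of at least 3 of the 6, with 82.8% to 88.9% per mouse, and 2.31% had UMIs of 1 alone. In 8.17% of the cells a single gene gave over 80% of the score. The 6 genes lie at Ifit2, chr19:34550694-34576419, Ifit3, chr19:34583531-34588731, Ifit3b, chr19:34607970-34613401, and Ifit1, chr19:34640871-34650009, all on the plus strand, Rsad2, chr12:26442746-26456452, and Isg15, chr4:156199424-156200818, both on the minus strand (GENCODE, mm10). Ifit3 and Ifit3b are near copies of each other, so the division of reads between them is uncertain.

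The score fell off without a gap. There were 825 cells at 5 UMIs, just outside the rule, with a median depth of 4869 UMIs, and 619 cells at 6, just inside it, with a median of 5179. Only 20 cells reached 50 or more, and the highest score was 119. The interferon-high cells held 50.7% ± 4.40 (SD, n = 3) of all endothelial score UMIs in WT mice and 60.2% ± 2.83 (n = 3) in TgAppArcSwe mice. They were thus the upper end of a range.

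A count threshold favours deep cells. The median depth of interferon-high against score-0 cells was 6422.5 against 3667, 6779.5 against 3771.5 and 5186 against 2980 UMIs in the WT mice. It was 6506 against 3219, 7156 against 4652 and 4441 against 2492 in the TgAppArcSwe mice. Interferon-high cells were the deeper in all 6 mice. The comparisons with score-0 cells were therefore repeated against score-0 cells of like depth, where enough UMIs remained to test the gene, within 10% of a member's UMIs and called matched cells here, although their medians, 3728 to 6482 UMIs, still lay under those of the members. The median mitochondrial share was lower in interferon-high than in score-0 cells of each mouse, at most 2.62% against at most 3.01%.

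The cells were endothelial by markers the rule did not use. In the interferon-high sums, Pecam1, an adhesion protein of endothelial junctions, stood at 753 CPM and Cdh5, VE-cadherin, at 571 CPM, against 743 and 527 CPM in score-0 cells. Bsg, a barrier-rich membrane protein, stood at 12034 CPM. Scores of 6 or more were also counted in other cell classes, and the part of free RNA in them was not tested. Among 2334 cells with mural markers, that is of smooth muscle cells and pericytes, 0% to 0.907% per mouse reached 6, at median depths of 3949 to 7492 UMIs. Among 5098 cells with microglial markers the share was 0.265% to 3.66%, at median depths of 1123 to 5837 UMIs. In every mouse both shares were under that of the barrier endothelial cells. Fenestrated endothelial cells, with Plvap at 6 UMIs or more, reached 3.61% to 18.0%, on only 50 to 112 cells per mouse.

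The share of interferon-high cells among barrier endothelial cells was 12.6%, 10.0% and 8.37% in the WT mice and 14.6%, 15.1% and 13.4% in the TgAppArcSwe mice. Every TgAppArcSwe mouse lay above every WT mouse. The 95% exact (Clopper-Pearson) intervals, which cover counting error only, ran from 7.48% to 9.32% in the lowest mouse and from 13.3% to 16.9% in TgAppArcSwe replicate 2, which had 1586 endothelial cells. The means were 10.3% ± 2.12 (SD, n = 3) and 14.4% ± 0.883 (n = 3), a difference of 4.04 percentage points. An exact two-sided permutation test over mice gave p = 0.1, the smallest that 3 against 3 mice can give, so the design could not reach 0.05. After each cell was thinned to 2000 UMIs and a score of 3 was asked for, the shares were 11.3%, 8.92% and 9.97% in WT and 13.8%, 9.95% and 17.9% in TgAppArcSwe. The groups then overlapped, at 10.1% ± 1.19 against 13.9% ± 4.00 (exact permutation p = 0.3). The cells under 2000 UMIs that thinning left out numbered 68 to 1179 per mouse. The median depth of all barrier endothelial cells was 4287, 4407 and 3481 UMIs in WT replicates 1 to 3 and 3963, 5619 and 2945.5 in TgAppArcSwe. The groups overlapped in depth. When members were asked for 10 score UMIs per 10000 UMIs and at least 2, the difference was 4.83 points (exact permutation p = 0.3). The score per 10000 UMIs of all barrier endothelial cells was 4.20 ± 0.474 in WT and 5.65 ± 1.31 in TgAppArcSwe mice (exact permutation p = 0.2). The part of depth in the share of each mouse was not tested in other ways.

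**Figure D1:**
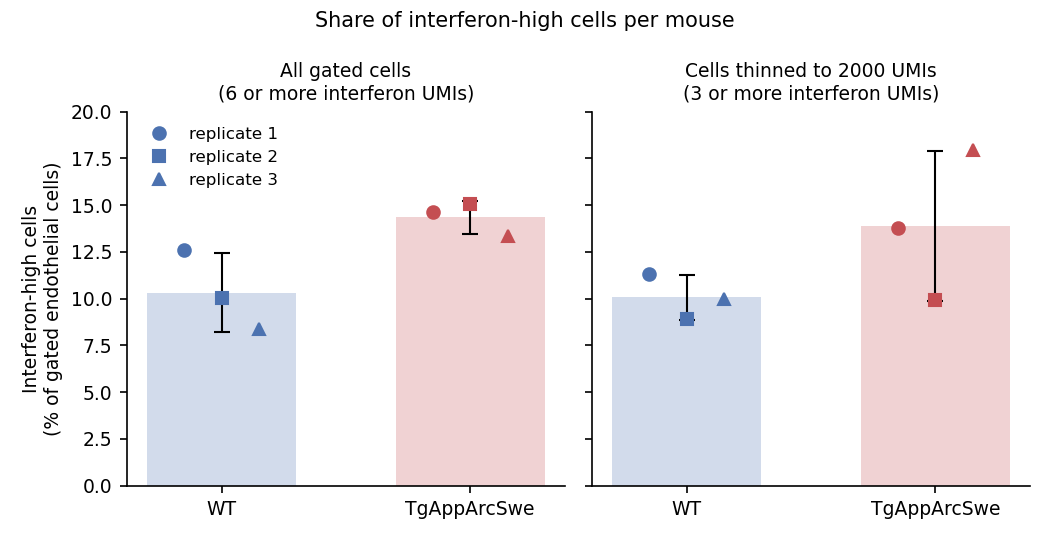
Share of barrier endothelial cells with a score of 6 or more in each mouse, in percent, as counted (left) and after thinning each cell to 2000 UMIs with a score of 3 or more asked for (right). Points are mice, bars group means and error bars SD (n = 3). As counted, the WT mice lie at 8.37% to 12.6% and the TgAppArcSwe mice at 13.4% to 15.1%, and after thinning the groups overlap.

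Arterial cells were more frequent, and venous cells less frequent, among interferon-high than among score-0 cells. Each cell was scored to a zone by the marker UMIs of that zone relative to their mean over all barrier endothelial cells, with arterial (Bmx, Sema3g, Gkn3, Efnb2, Hey1, Vegfc, Fbln5, Stmn2), capillary (Mfsd2a, Tfrc, Car4, Slc16a1, Slc7a5, Rgcc, Spock2) and venous genes (among them Slc38a5, Nr2f2, Vwf, Ackr1, Il1r1, Lcn2 and Tmsb10). None of them enters the rule. The 180 cells without 2 marker UMIs of the leading zone, or with a tie, stayed unscored. Arterial-scored cells were 35.4%, 31.4% and 37.0% of the interferon-high cells in the WT mice and 32.9%, 26.8% and 36.2% in the TgAppArcSwe mice. In score-0 cells they were 15.9% to 21.9%. The groups did not overlap. The mean share was 33.3% ± 3.81 against 19.2% ± 2.26 (SD, n = 6), a difference of 14.0 percentage points that was positive in 6 of 6 mice (exact sign-flip permutation test, p = 0.03125, the smallest that 6 mice can give and 0.03125 after Benjamini-Hochberg adjustment over 3 zones). Against matched cells the arterial difference was 10.4 points, again in 6 of 6 mice, with exact p = 0.03125 and an adjusted value of 0.0469.

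Venous-scored cells were fewer, 24.3% ± 3.00 against 30.1% ± 3.68 of score-0 cells, a difference of -5.79 points and lower in 6 of 6 mice (exact permutation p = 0.03125). Against matched cells the difference was -10.0 points, also negative in all 6 mice. When members were asked for 10 UMIs the venous difference was -4.08 points, with exact p = 0.125. Capillary-scored cells were 42.2% ± 4.69 against 49.4% ± 3.37, a difference of -7.22 points and lower in 6 of 6 mice (exact permutation p = 0.03125). Against matched cells this difference was -0.455 points and lower in only 4 of 6 mice (exact permutation p = 0.53125). The capillary call was thus lost against cells of like depth. Of the scored cells, 14.6% lay near a cut between zones. A single gene gave much of a zone's signal, Tmsb10 60.5% of venous and Spock2 50.1% of capillary marker UMIs. Of 10 genes outside or beside the lists some separated the zones and some did not. Mgp stood at 1981 CPM in arterial-scored cells against 25.3 in capillary-scored and 59.4 in venous-scored cells, and Lrg1 at 30.1 CPM in venous-scored cells against 1.3 and 0.6. Slco1a4 stood at 2266 CPM in capillary-scored and 2111 in venous-scored cells and Slc16a4 at 131 and 137, so neither separated these zones. Vcam1 stood at 498 CPM in venous-scored, 257 in arterial-scored and 19.7 in capillary-scored cells.

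**Figure D2:**
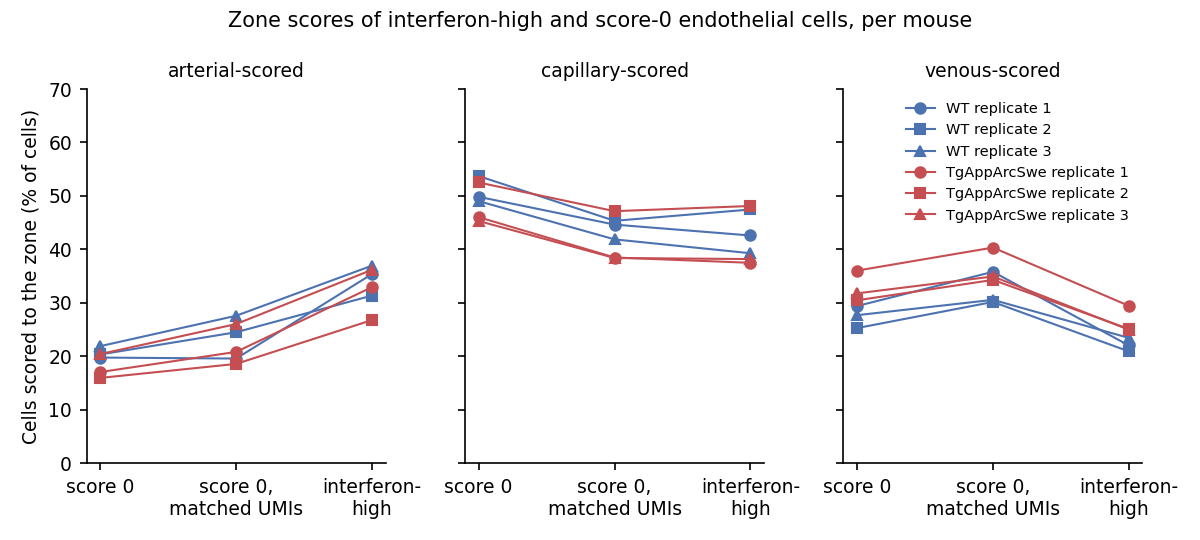
Share of cells scored arterial, capillary or venous, in percent of cells, in score-0 cells, matched score-0 cells and interferon-high cells, with a line for each mouse. The arterial share is higher and the venous share lower in interferon-high cells of all 6 mice, and the capillary share lies close to that of matched cells.

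Seen from the zones, 17.1% ± 3.97 (SD, n = 6) of arterial-scored cells were interferon-high, 11.0% ± 2.55 of capillary-scored and 10.7% ± 2.27 of venous-scored cells. After thinning to 2000 UMIs the shares were 14.0% ± 4.02, 12.2% ± 3.25 and 9.94% ± 3.19, so the gap between arterial and capillary narrowed. In WT replicate 3 it turned, with 9.68% of arterial-scored and 11.1% of capillary-scored cells. By genotype, without thinning, the arterial values were 17.6%, 13.9% and 11.0% in WT and 21.9%, 19.2% and 18.9% in TgAppArcSwe. The TgAppArcSwe mice lay above the WT mice in each zone, by 5.83 points in arterial-scored, 3.82 in capillary-scored and 3.47 in venous-scored cells (exact permutation p = 0.1 in each, the smallest possible). After thinning the exact p was 0.1, 0.3 and 0.4 for the 3 zones. The 3 zones come from the same mice and are not independent.

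Genes other than those of the rule were then compared between interferon-high and score-0 cells, as raw UMIs summed per mouse and state, with mouse as a term in edgeR's quasi-likelihood test. Of 11265 genes tested, 821 rose and 716 fell at a Benjamini-Hochberg adjusted p under 0.05, 7.29% and 6.36% of those tested. Most changes were small. The median absolute log2 fold change of the called genes was 0.29, and 1137 of the 1537 stayed under 0.5. A rise of more than 1 on the log2 scale was seen in 76 genes, and a fall of more than 1 in 19. Against matched cells, of 10469 genes tested 427 rose and 508 fell, 4.08% and 4.85% of those tested, so that the higher share of the calls was 45.7% in place of 53.4%, and 395 of the 821 and 304 of the 716 were called in the same direction both times. DESeq2 called 716 genes, of which 62.3% were higher. Without the mouse term 182 were called and 89.6% of them were higher.

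Interferon-induced genes made up most of the large rises. Of 121 genes in 7 lists of antiviral effectors, ISG15 conjugation and ubiquitin ligases, Ifi200, Slfn and nuclear body genes, GBP and IRG GTPases, MHC class I, nucleic acid sensors and negative regulators, 111 were tested. Of these 96 rose and 1 fell, with a median log2 fold change of 0.87 against -0.0037 over all genes tested. Against matched cells 89 of 104 rose and 2 fell, with a median of 0.81. The 7 lists held 46 of the 76 genes that rose by more than 1. They were not used by the rule but belong to the response on which the cells were chosen, so their direction is a description of the state.

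Oasl1, a member of the oligoadenylate synthetase family that restrains Irf7 translation, changed the most. Its summed level was 26.7, 22.7 and 45.4 CPM in the interferon-high cells of the WT mice and 35.0, 31.1 and 42.1 CPM in those of the TgAppArcSwe mice, against 2.39 to 4.85 CPM in score-0 cells. The states did not overlap, and the log2 fold change was 3.37 (SE 0.13, edgeR adjusted p = 1.51e-18). Members held 53.5% of all endothelial Oasl1 UMIs. Oas1g, a synthetase of the RNase L pathway, stood at 4.92 ± 1.20 CPM against 0.556 ± 0.256, a log2 fold change of 2.99, and had too few UMIs to be tested against matched cells. Ifi44, an antiviral protein, stood at 71.3 ± 17.7 against 12.5 ± 2.80 CPM, a log2 fold change of 2.51. Of the 24 antiviral effectors tested 23 rose. Oasl2 rose by 2.16 on the log2 scale, Cmpk2, a mitochondrial nucleotide kinase, by 2.11, Rtp4, a chaperone that inhibits viral replication, by 1.97 and Oas1a by 1.80. The most abundant effector, Ly6a, a surface protein of brain endothelium, rose from 1640 ± 131 to 2304 ± 169 CPM, a log2 fold change of 0.52. Ifitm3, which blocks virus entry at endosomes, rose from 902 ± 148 to 1629 ± 229 CPM, a log2 fold change of 0.89. Ifitm1 did not pass the test, at -0.13. The OAS genes lie side by side and resemble each other, so reads may be split between them.

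Of 9 nucleic acid sensors tested 4 rose, and of 5 negative regulators 3 rose and 1 fell. Zbp1, a sensor of left-handed nucleic acid that can trigger necroptosis, stood at 12.2, 8.70 and 26.2 CPM in WT and 19.7, 16.6 and 33.7 CPM in TgAppArcSwe interferon-high cells, against 1.17 to 7.18 CPM in score-0 cells. Its log2 fold change was 2.68 (SE 0.17, edgeR adjusted p = 2.59e-13). Dhx58 and Ifih1, RNA helicases of the RIG-I family, rose by 1.99 and 1.30 on the log2 scale, and Ddx58, RIG-I itself, by 0.87. The other 5 sensors tested, among them Tlr3 and Cgas, did not pass. Usp18, which removes ISG15 from proteins and dampens receptor signalling, rose from 18.7 ± 2.85 to 84.5 ± 8.83 CPM, a log2 fold change of 2.19. Socs1, an inhibitor of JAK kinases, rose by 0.71 and Ptpn11 by 0.16, while Pias1 fell by 0.16 on the log2 scale.

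All 17 genes of ISG15 conjugation and ubiquitin ligases rose, with a median log2 fold change of 0.99, and all 17 rose against matched cells too. Next to Usp18, the leading members were Rnf213 at 1.34, Parp14 at 1.32 and Trim30a at 1.07. All 16 GBP and IRG GTPases, proteins that attack the vacuoles of microbes, rose in both comparisons, with a median of 1.39. Gbp6 rose by 1.95, Gm4951 by 1.93, Tgtp1 by 1.75 and Iigp1 by 1.68. These families hold near-identical copies. Of the 20 Ifi200, Slfn and nuclear body genes tested 16 rose, led by Phf11d at 1.79 and Slfn2, a regulator of leukocyte quiescence, at 1.77. Slfn5, the most abundant, rose by 0.49 from 324 to 444 CPM.

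The changes of MHC class I, which presents peptides to cytotoxic T cells, were smaller per gene. Of 21 genes tested 18 rose, with a median log2 fold change of 0.46, and 18 of 20 rose against matched cells. Nlrc5, the transactivator of class I genes, rose by 1.17 and Tap1, a subunit of the peptide transporter, by 1.08. Psmb8, an immunoproteasome subunit, rose from 127 to 217 CPM. H2-D1, the most abundant, rose by 0.26 from 1161 ± 223 to 1368 ± 273 CPM, and B2m, the class I light chain, by 0.36. Of 4 MHC class II genes none passed the test, all 4 had negative values, and against matched cells all 4 fell.

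No receptor gene passed the test, while several factors downstream of the receptors did. The 5 interferon receptor genes tested had log2 fold changes of -0.06 to 0.04, and Il10rb rose by 0.15 against matched cells. Ifnar1 stood at 206 CPM in interferon-high and 219 CPM in score-0 cells. Of the 12 signal transducers 6 rose and 1 fell. Irf7, the amplifier of type I interferon genes, stood at 119, 114 and 116 CPM in WT and 170, 129 and 159 CPM in TgAppArcSwe interferon-high cells, against 25.5 to 58.4 CPM in score-0 cells, a log2 fold change of 1.78. Stat2 and Irf9, which are parts of the factor that binds the response element, rose by 1.31 and 0.98. Jak1, Tyk2 and Irf3 did not pass the test. The transcripts of 8 interferon ligand genes were too few to test. Their summed level was 1.24 ± 1.90 CPM in interferon-high and 2.08 ± 3.40 CPM in score-0 cells, mostly Ifnb1. TgAppArcSwe replicate 3 carried both means, at 4.92 and 8.62 CPM, and without it they were 0.507 and 0.773 CPM. In the interferon-high cells Ifna2, Ifna4, Ifnl2, Ifnl3 and Ifne had no UMI.

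**Figure D3:**
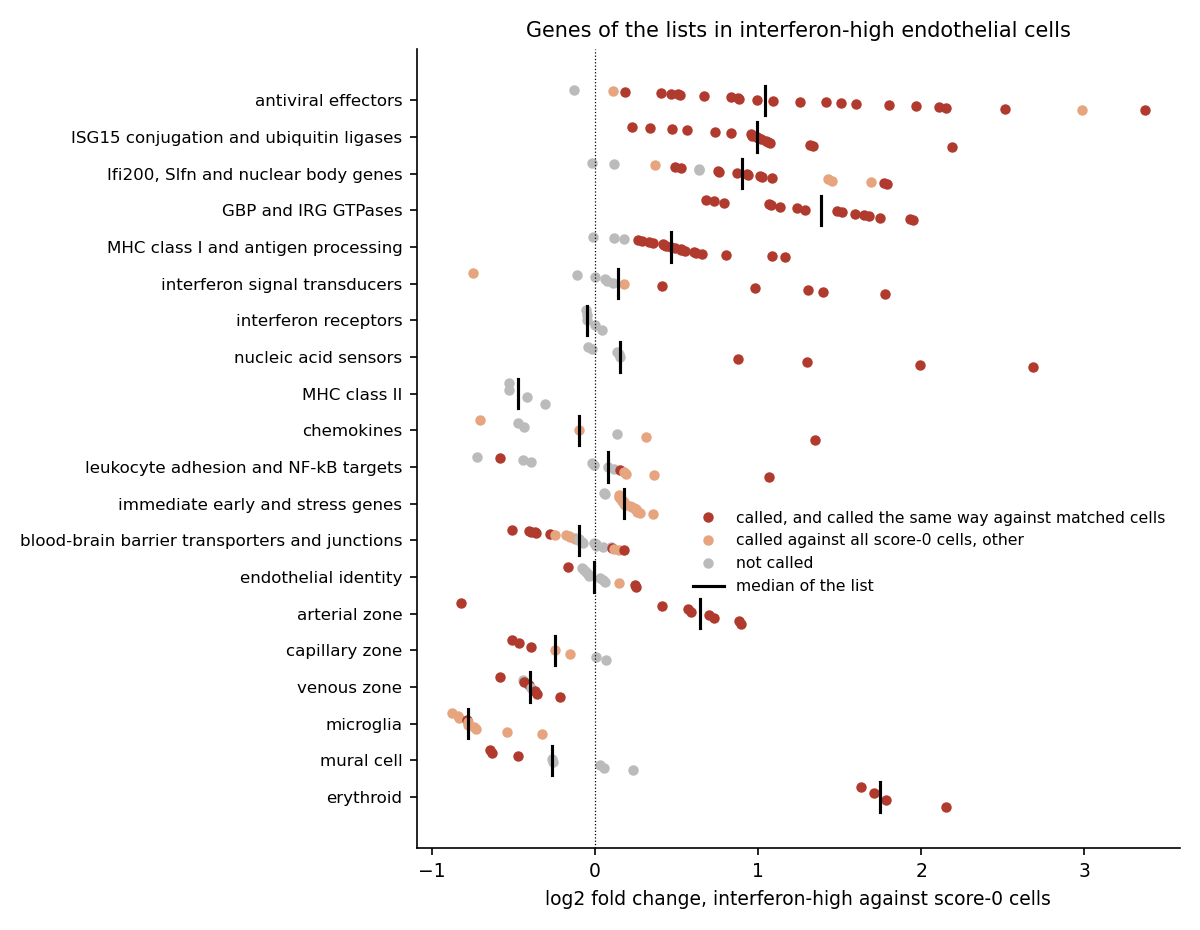
Log2 fold change, interferon-high against score-0 cells, of each tested gene of the lists (points) with the list's median (bar). Red genes passed the test and passed it in the same direction against depth-matched cells, orange genes passed against all score-0 cells alone or were not tested against matched cells, and grey genes did not pass. The ISG15 and GBP genes lie to the right of 0, as do the antiviral and MHC class I genes but for Ifitm1 and Erap1 at -0.13 and -0.01, and the receptors lie between -0.06 and 0.04.

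Outside these 7 lists, Apol9b and Apol9a, apolipoprotein L genes, rose by 2.64 and 2.55 on the log2 scale. Apol9b stood at 14.8, 14.8 and 20.8 CPM in WT and 23.8, 15.6 and 29.5 CPM in TgAppArcSwe interferon-high cells, against 2.07 to 5.39 CPM in score-0 cells. The copies of this pair are close in sequence. Cd274, the immune checkpoint ligand PD-L1, rose from 23.2 ± 3.64 to 47.5 ± 11.7 CPM, a log2 fold change of 1.07. Of the other 12 leukocyte adhesion and NF-kB genes tested 4 rose and 1, the interleukin receptor Il1r1, fell, by 0.58. Among them Vcam1, an adhesion protein for leukocytes, rose by 0.18 against all score-0 cells and fell by 0.31 against matched cells, and Icam1 fell by 0.50 against matched cells alone. Cxcl12, the most abundant chemokine, had 0.12 against matched cells and -0.10 against all, so its direction turned with the reference cells.

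Graded by score, the level of the interferon groups was higher at each step, and that of the receptors was not. The summed GBP and IRG genes stood at 662 ± 98.8 CPM at score 0, 807 ± 113 at 1 to 2, 983 ± 148 at 3 to 5, 1282 ± 176 at 6 to 9, 1628 ± 180 at 10 to 19 and 3081 ± 876 at 20 or more (SD, n = 6 mice). The summed MHC class I genes went from 4520 ± 968 to 7163 ± 1118 CPM over the same bins. The summed receptors were 932 ± 54.2 CPM at score 0 and 837 ± 78.1 CPM at 20 or more. The highest bin held 217 cells, as few as 17 in a mouse. These are levels without a test.

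Barrier genes changed by less. Of 27 blood-brain barrier transporter and junction genes 4 rose and 11 fell, with a median log2 fold change of -0.10, and against matched cells 3 rose and 6 fell. The largest falls were those of Tfrc, the transferrin receptor, by 0.51, Slc38a5, an amino acid carrier, by 0.40, and Slc16a1, a lactate carrier, by 0.40. Tfrc and Slc16a1 are among the capillary and Slc38a5 among the venous genes of the zone scores, and cells of those zones differed in share by -7.22 and -5.79 points between interferon-high and score-0 cells. The part of the zone make-up in these falls was not tested. Tfrc stood at 178 to 303 CPM in interferon-high and 265 to 457 CPM in score-0 cells, ranges that overlap between mice although it was lower in 6 of 6. Slc2a1, the glucose carrier, rose by 0.10. Of the 8 arterial genes 7 rose, led by Gkn3 at 0.89 and Vegfc at 0.88, and Fbln5, an elastic fibre protein of large arteries, fell by 0.83. Of 8 venous genes 6 fell and none rose, and of 7 capillary genes 5 fell and none rose. Immediate early and stress genes, such as Fos and Egr1, rose in 18 of 20 with a median of 0.18, but against matched cells none rose and 2 fell. Cell death genes were mixed, with 6 of 19 higher, among them Mlkl, the executor of necroptosis, at 0.40, and Tnfsf10 at 0.33, both of which also rose against matched cells.

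The 10 named genes that fell the most were of low abundance. Nupr1, a stress-response gene, stood at 2.59 to 12.5 CPM in the interferon-high cells of the 6 mice, against 3.03 to 27.7 CPM in score-0 cells, overlapping ranges but lower in each mouse, with a log2 fold change of -1.44. Bmp4, a secreted growth factor, fell by 1.24 and Bgn, a matrix proteoglycan, by 1.02. The others were Zfpm2, Tll1, Cadm2, Gm49226, C3ar1, Nlrp3 and Ly86, of which C3ar1, Nlrp3 and Ly86 are genes of myeloid cells. All 10 lost the call when the mouse term was left out, and Tll1, Cadm2 and Gm49226 also lost it in the TgAppArcSwe mice alone, where edgeR gave adjusted p = 0.148, 0.166 and 0.081. Zfpm2, Tll1, Gm49226, C3ar1 and Nlrp3 had too few UMIs to be tested against matched cells, against which the other 5 fell. All 10 microglial genes tested fell as well, from a sum of 540 ± 409 CPM in score-0 cells to 353 ± 218 CPM in interferon-high cells, lower in 6 of 6 mice, and 1 of the 10 fell against matched cells. The mural genes summed to 533 ± 205 CPM in score-0 and 411 ± 224 CPM in interferon-high cells, again lower in 6 of 6 mice. In matched cells the mural sum was 900.0 ± 440.0 CPM, and all 8 mural genes fell against them, while the microglial sum was 401 ± 277 CPM. Their part in the falls was not tested. Acta2 led the mural sum at 123 CPM, and no gene of either list was at 0.

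Genes of red blood cells rose as well. Hbb-bs and Hbb-bt, beta globins, and Hba-a1 and Hba-a2, alpha globins, rose by 1.79, 2.15, 1.63 and 1.71 on the log2 scale. Without the mouse term all 4 lost the call, with log2 fold changes of 1.46 to 1.85. The 4 genes together stood at 21536, 17277 and 7391 CPM in WT and 11982, 9737 and 6673 CPM in TgAppArcSwe interferon-high cells, against 1487 to 9969 CPM in score-0 cells, higher in 6 of 6 mice. Hbb-bs was the most abundant at 7609 CPM. Alas2, the erythroid enzyme of haem synthesis, rose by 1.60 on the same scale. The signal came from few cells. Cells with 50 or more hemoglobin UMIs were 5.97%, 5.37% and 2.97% of the interferon-high cells in WT and 2.93%, 2.51% and 3.47% in TgAppArcSwe mice, against 0.671% to 2.09% of score-0 cells. The means were 3.87% ± 1.44 and 1.12% ± 0.530 (SD, n = 6), higher in 6 of 6 mice (exact sign-flip permutation p = 0.03125), and 1.99% ± 1.05 in matched cells (exact p = 0.03125). This threshold was chosen after its values were seen. Barrier endothelial cells above it were also deeper without hemoglobin in each mouse, with medians of 4131 to 8256 other UMIs against 2920 to 5583. Their score per 10000 other UMIs was 4.42 to 8.89 against 3.77 to 6.97. It was lower than in the remaining cells in TgAppArcSwe replicate 1, at 5.50 against 5.65. Matched cells were chosen by total UMIs, hemoglobin included. The part of depth in the hemoglobin shares was not tested in other ways. Cells with no UMI of the 4 endothelial genes held 0 such cells in 5 mice and 2 of 1664 in TgAppArcSwe replicate 3. Droplets with fewer than 500 detected genes had been left out before this count. Where the hemoglobin came from was not tested. No caller of doublets was run. Without the cells with 50 or more hemoglobin UMIs, 1554 genes were called in all and Alas2 was too low to test. Hbb-bs and Hbb-bt then had log2 fold changes of -0.78 and -0.91, but the cells were removed by the UMIs of these genes, so the values are a description of the cells that remained and no test. Oasl1 then rose by 3.43.

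**Figure D4:**
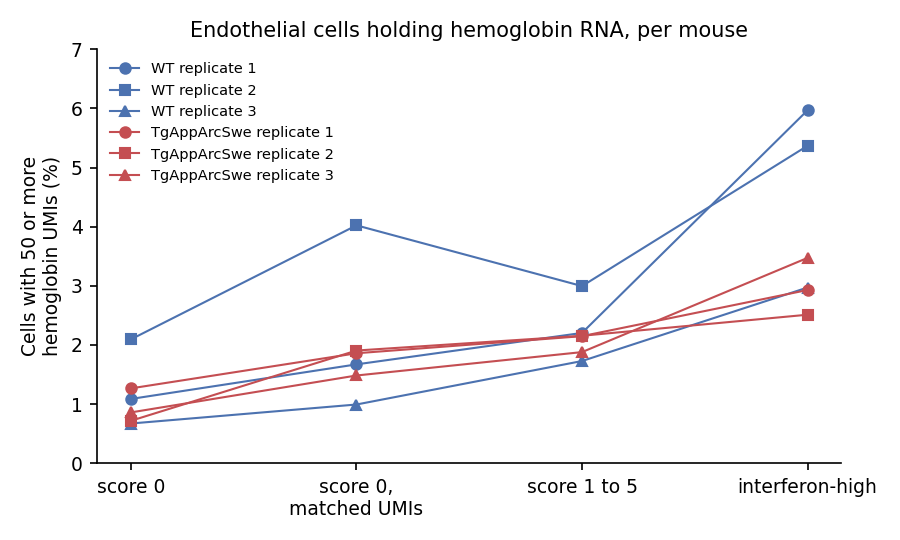
Share of cells with 50 or more hemoglobin UMIs, in percent, in score-0, matched score-0, score 1 to 5 and interferon-high cells, with a line for each mouse. Interferon-high cells lie at 2.51% to 5.97% and exceed both reference sets in all 6 mice.

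Within the interferon-high cells, genotype was compared over 3 WT and 3 TgAppArcSwe sums. Of 10682 genes tested, edgeR called none (0% of those tested), with 458 at an unadjusted p under 0.05. DESeq2 called 4, B2m, Dbp, H2-Q6 and H2-Q7, all higher in TgAppArcSwe. With the replicate number as a block, edgeR called 5, Dbp, H2-Q4, H2-Q6, H2-Q7 and Nr1d1, again all higher. H2-Q7, a non-classical class I gene, stood at 107, 51.5 and 137 CPM in WT and 195, 169 and 260 CPM in TgAppArcSwe, a log2 difference of 1.14 (SE 0.27, edgeR adjusted p = 0.996, and 0.0156 with the block). H2-Q6 stood at 60.6, 28.0 and 67.2 against 128, 87.1 and 137 CPM. B2m stood at 932, 828 and 1164 against 1490, 1348 and 1605 CPM, a log2 difference of 0.64. The Q genes are close copies of each other. Dbp and Nr1d1, genes of the circadian clock, stood at 16.3 ± 3.19 and 53.4 ± 7.47 CPM in WT against 39.2 ± 9.58 and 99.8 ± 25.8 in TgAppArcSwe. All of these genes lay higher in every TgAppArcSwe than in every WT mouse, as did 3.53% of all genes tested. The same held in score-0 cells, where H2-Q7 stood at 88.1, 36.1 and 83.7 CPM in WT and 143, 126 and 201 CPM in TgAppArcSwe, and Dbp at 17.0 to 19.3 CPM in WT and at 25.1 CPM or more in TgAppArcSwe.

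In the 7 interferon lists, 88 of 112 genes had a positive genotype difference, with a median of 0.16 on the log2 scale against 0.0011 over all genes. Of the 112, 13 (11.6%) lay higher in every TgAppArcSwe than in every WT mouse and 3 lay lower, where the shares over all genes tested were 3.53% and 6.68%. MHC class I held 8 of the 13, with 19 of 20 positive and a median of 0.28. The 16 GBP and IRG genes were all positive, with a median of 0.37, and 3 did not overlap. Among the transducers Irf7 did not overlap, with a difference of 0.43. Such differences were not confined to interferon-high cells. In score-0 cells the summed GBP and IRG genes stood at 532 to 657 CPM in WT and 693 to 785 CPM in TgAppArcSwe mice. Summed MHC class I genes stood there at 3198 to 4205 against 4725 to 5900 CPM. Irf7 stood at 25.5 to 35.3 against 43.1 to 58.4 CPM. In interferon-high cells the GBP and IRG sums overlapped, at 1227 to 1554 and 1472 to 1825 CPM. Those of MHC class I did not. Among the score genes, given as a description, Ifit2, Ifit3 and Ifit3b were higher in every TgAppArcSwe mouse, and Ifit1, Rsad2 and Isg15 overlapped. Microglial and mural genes were also higher in TgAppArcSwe members, with medians of 0.79 and 0.71 and overlapping groups, and their part in these differences was not tested. The erythroid genes had a median of -0.65.

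**Figure D5:**
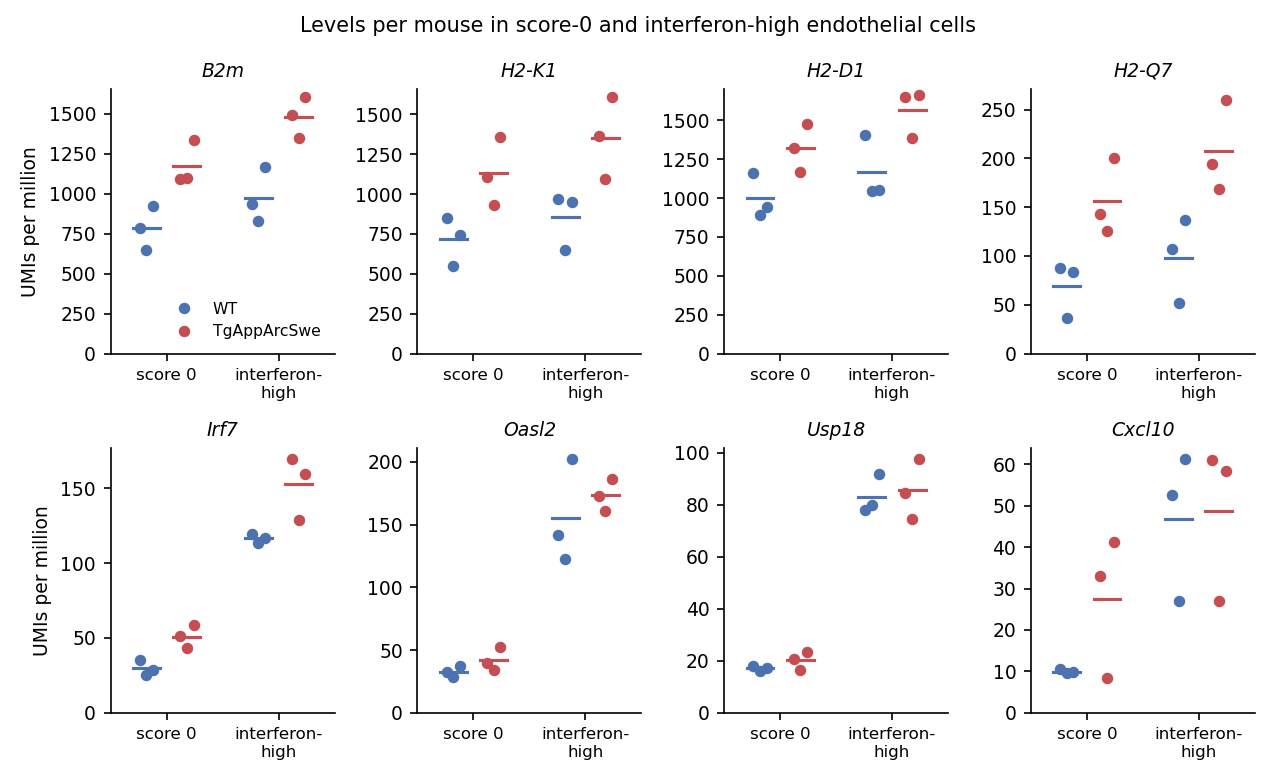
Levels of 8 genes in summed score-0 and interferon-high cells, in UMIs per 1000000 (CPM), for WT and TgAppArcSwe mice, where points are mice and lines group means. In interferon-high cells B2m, H2-K1, H2-Q7 and Irf7 do not overlap between genotypes, while H2-D1, Oasl2, Usp18 and Cxcl10 do.

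Whether the interferon-high state differed by genotype was tested as an interaction over 11825 genes. The test called 2, with 530 at an unadjusted p under 0.05. Cxcl10, a chemokine for T cells, stood at 52.5, 26.9 and 61.2 CPM in WT and 61.0, 27.0 and 58.4 CPM in TgAppArcSwe interferon-high cells, which overlap. In score-0 cells it stood at 10.5, 9.55 and 9.75 CPM in WT and 33.1, 8.28 and 41.1 CPM in TgAppArcSwe, where replicates 1 and 3 were high and replicate 2 lay under the WT mice. Its log2 fold change between states was 2.23 in WT and 0.81 in TgAppArcSwe, a difference of -1.41 (SE 0.22, edgeR adjusted p = 0.0167). Vcam1 had -0.05 in WT and 0.39 in TgAppArcSwe, a difference of 0.45 (SE 0.08, edgeR adjusted p = 0.0496). Against matched cells no gene was called. With a mouse left out, the count was 1 without WT replicate 1 or WT replicate 2, 0 without WT replicate 3, TgAppArcSwe replicate 1 or TgAppArcSwe replicate 3, and 2 without TgAppArcSwe replicate 2.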

How the data were processed

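The authors made the libraries with a 10x Genomics droplet kit and, per the labels' processing notes, counted them with Cell Ranger 7.0.0 on mm10, to which mouse Clec7a and human NOTCH3 were added. The deposited values are UMI count values for each gene in each cell, without normalization or cell annotation. Cells with 500 to 4500 genes and under 10% mitochondrial UMIs were kept. No doublet caller was run.

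The gate took 32398 cells with 6 endothelial UMIs or more, of which 8980 were left out for a microglial UMI and 532 for Plvap. UMIs were summed per mouse and state. Genes of the rule were not tested, nor, after the methods of the study, pseudogenes, Rik genes and those of mitochondria and ribosomal proteins. Sums were tested in R 4.3.3 with edgeR 4.0.16 (TMM, filterByExpr, quasi-likelihood test with limma 3.58.1, Benjamini-Hochberg over all genes tested). SE is the absolute log2 fold change over the square root of F. DESeq2 1.42.0 was an alternative. Shares were compared over mice with scipy 1.17.1, pandas 2.3.3, numpy 2.4.6 and statsmodels 0.14.6 under Python 3.11.15, and matplotlib 3.10.9 drew the figures. The fits were tested on simulated data.

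Named genes were the 20 with the largest rise and 10 with the largest fall among genes with an adjusted p under 0.05, the same sign in every mouse and 60 UMIs, the leading members and the most abundant member of each list, and, by genotype, called genes without overlap. Genes named because another method called them, Alas2, Ifitm3 and list members named as exceptions were added after their values were seen. Alternatives were another normalization, no filter on low counts, matched, thinned or more strictly filtered cells, other score limits and each mouse left out. Some genes covered by these rules are not reported here. The members and lists were chosen with earlier results of these data known. Replicates are separate mice by the labels.

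The titles number the replicates 1 to 3 in each genotype. Same-numbered mice deviated together from their group means across genes, with correlations of 0.139, 0.181 and 0.284 in the 3 pairs. Mice of different numbers had -0.207 to 0.085, the highest for WT replicate 1 with TgAppArcSwe replicate 2. Deviations from a group mean are tied to each other, so these values are not independent. The numbers were taken to pair the mice, although the labels do not say what a number shares. The pairing thus rests on these same data.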

Additional observations from a re-analysis of the deposited data

Results flagged for a closer look

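The change of Cxcl10 between interferon-high and score-0 cells differed between genotypes by -1.41 on the log2 scale, TgAppArcSwe minus WT, in edgeR's interaction test. That of Vcam1 differed by 0.45. Both were singled out because the test of the difference itself passed. Score-0 cells of TgAppArcSwe replicates 1 and 3 held more Cxcl10 than those of any WT mouse, and those of replicate 2 held less. No explanation was tested.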

How the results depend on the processing

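The genotype difference in share kept its sign in all alternatives, at 2.42 to 4.83 percentage points, and at 3.06 to 5.17 with a mouse left out. It was 3.83 points after thinning and 4.83 with the score as a rate, each with exact permutation p = 0.3. As a paired difference with the replicate block it was 4.04 points, higher in 3 of 3 pairs, with exact p = 0.25, the smallest 3 pairs can give. The block changed no call but the genotype genes within interferon-high cells, 5 in place of 0, where DESeq2 called 4, no filter on low counts 101 and any mouse left out 0. The genes changed in interferon-high cells numbered 1537, with DESeq2 716, with matched cells 935, without the mouse term 182, in WT mice alone 803, in TgAppArcSwe mice alone 768, and 1136 to 1439 with a mouse left out. The interaction genes numbered 2, with RLE normalization 1, with no filter 14, with matched cells 0, without hemoglobin-rich cells 1, and 0 to 2 with a mouse left out. The capillary difference was -0.455 points with matched cells and the venous one -4.08 with members at 10 UMIs, neither of which passed the threshold. With a mouse left out, 5 mice cannot give a p under 0.0625, and the arterial, capillary and venous differences were 13.7 to 14.7, -7.78 to -6.71 and -6.10 to -5.47 points. Of 489 values of the 30 named genes under the alternatives, 472 kept direction and call, 15 lost the call, 12 of them without the mouse term and 3 in TgAppArcSwe mice alone, and 2 turned, Hbb-bt at -0.91 and Hbb-bs at -0.78 without hemoglobin-rich cells, an alternative chosen after seeing the data that removes cells by the UMIs of these same genes and so is no test of them. The transcripts of the interferon ligands were too few to test at this depth.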
